A study of Mus musculus with 12 samples.

Results

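Lung CD11c+ cells from Mir22-/- mice were compared with those from wild-type mice that had received the same vehicle, PBS. The comparison used 6 of the 12 arrays of the series, replicates 1 to 3 of the knockout PBS group and replicates 1 to 3 of the wild-type PBS group, chosen by their labels alone. Both groups carried the strain label B6(Cg)-Tyrc-2J/J and the age label 4 month, so the labelled difference between them was the Mir22 genotype. The other 6 arrays held the same 2 genotypes after nanoparticulate carbon black (nCB), a fine carbon dust. Exposure began at 2 months of age and ran for 1 month per the labels. CD11c, the integrin encoded by Itgax, is carried by lung macrophages and dendritic cells, and the cells were taken with magnetic beads (AutoMACS) and labelled as antigen presenting cells. How the Mir22 allele was made, whether both genotypes were littermates, and how many animals gave 1 sample are not stated in the labels. The p-values therefore measure the spread between these samples, which may be technical.

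MicroRNAs are short RNAs that guide a silencing complex to messenger RNAs by pairing, mainly through bases 2 to 8, with sites in those messages, and lower their stability or translation. miR-22 is a conserved microRNA cut from the transcript of its own gene. In lung antigen presenting cells it is known as a repressor of Hdac4, a class IIa histone deacetylase that restrains transcription of inflammatory genes. Alveolar macrophages clear inhaled particles, while dendritic cells carry antigen to T cells on MHC class II molecules whose transcription depends on the activator Ciita.

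The RNA that the knockout allele should remove is given first, because no probe on the arrays was listed for it and the genotype could not be checked on the deleted gene itself. The sequences are from RefSeq, on the plus strand of mouse build GRCm38.p6. The hairpin lies at chr11:75463716-75463810, with both mature arms in capitals.
microRNA 22 hairpin: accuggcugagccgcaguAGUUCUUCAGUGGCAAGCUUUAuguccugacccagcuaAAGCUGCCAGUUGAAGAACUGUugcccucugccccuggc
The arms lie at chr11:75463734-75463755 and chr11:75463772-75463793, and in the next lines the capitals mark the seed, bases 2 to 8, which differs between them.
mmu-miR-22-5p: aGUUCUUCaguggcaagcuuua
mmu-miR-22-3p: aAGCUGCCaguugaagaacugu

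The arrays read labelled RNA as light from probes on beads, and all levels below are background-corrected, quantile-normalized log2 intensities. A detection p compares a probe with the negative control beads of its array. Between 14215 and 15849 probes were detected on each of the 12 arrays at a detection p under 0.05. Log2 intensities over all features correlated at 0.989 to 0.992 among the wild-type PBS arrays, at 0.985 to 0.990 among the knockout PBS arrays and at 0.984 to 0.989 between the genotypes. The first principal component of the 6 PBS arrays held 32.1% of the variance, with the wild-type arrays at -14.3, -10.9 and -11.1 and the knockout arrays at 8.48, 14.3 and 13.5. The second held 26.4% and did not separate the genotypes. On it the wild-type arrays lay at 11.3, -7.09 and -2.71 and the knockout arrays at -12.2, 18.5 and -7.83. Of 14 measured alveolar macrophage markers, 13 were detected on all arrays of both groups. Siglecf, a surface lectin that defines these cells, was the exception and was detected on 1 array of each group. Itgax itself read 5.76, 5.94 and 6.10 in wild type and 5.87, 5.28 and 6.2 in the knockout, and these ranges overlapped.

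A small share of the measured transcriptome differed between the genotypes. Of 12380 features, each 1 probe per gene or 1 unnamed probe, limma called 117 at a Benjamini-Hochberg adjusted p under 0.05, which is 0.945%. Among these, 51 (0.412%) were higher and 66 (0.533%) lower in the knockout, and 46 differed by 2-fold or more. The 3 knockout values lay wholly above or below the 3 wild-type values for 1634 features (13.2%). Calls that stood with each of the 6 PBS arrays left out in turn numbered 59, of which 27 were higher and 32 lower. Dropping wild-type PBS 1 left 30 higher and 39 lower, and dropping knockout PBS 3 left 31 and 40. The lower calls were 42 after dropping wild-type PBS 2, and the higher calls were 31 after dropping knockout PBS 1. When arrays were scaled to a common median instead, the median difference of all features moved from -0.01 to -0.13, and the share of calls that were higher moved from 43.6% to 23.1% (18 higher, 60 lower).

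The calls were spread unevenly over the chromosomes. Mir22 lies on chromosome 11. Genes of chromosomes 2, 11 and 14 were kept apart from the rest, a choice made with earlier results of these data known. Chromosome 14 had 17 of 334 features called (5.09%), chromosome 2 had 26 of 762 (3.41%) and chromosome 11 had 13 of 854 (1.52%). On the other chromosomes the share ran from 0% to 0.998%. Together the 3 chromosomes held 56 of the 117 calls and 38 of the 59 that stood without each array, and features elsewhere or without a position held 61 and 21. Lower calls outnumbered higher ones on chromosome 14 (13 to 4) and chromosome 2 (18 to 8), while chromosome 11 had 7 lower and 6 higher.

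**Figure D1:**
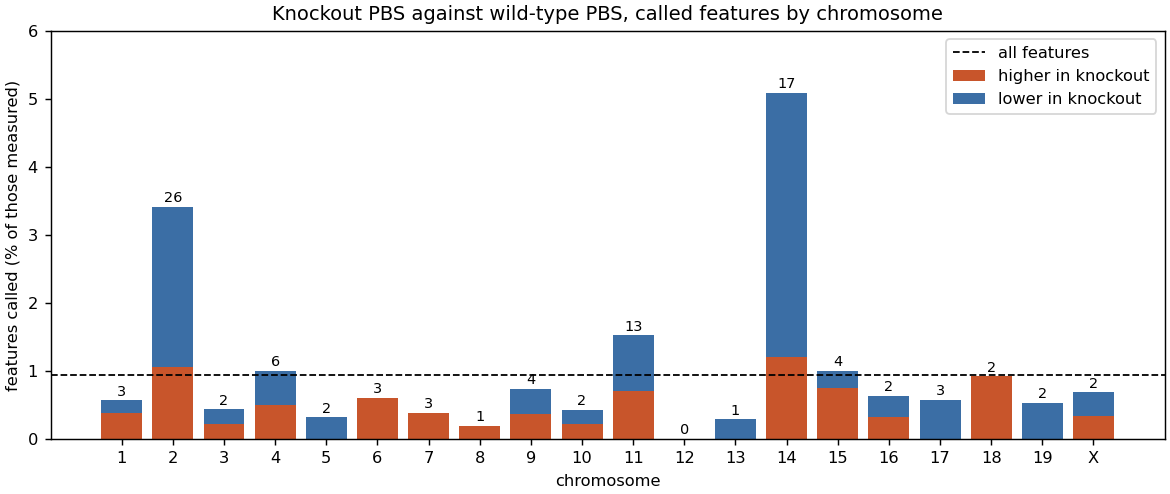
Share of measured features called in the knockout PBS against wild-type PBS comparison (vertical axis, percent) for each chromosome (horizontal axis), split into higher and lower calls, with the number called above each bar and the share over all features as a dashed line. Chromosome 14 reached 5.09%, chromosome 2 reached 3.41%, and chromosome 11 reached 1.52%.

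On chromosome 11 the clearest rise was in Tlcd2, the measured gene closest to Mir22, whose annotated start lies 4.31 kb from that of Mir22 in GRCm38.p6. Tlcd2 encodes a membrane protein of the TLC domain family. Its log2 intensity was 4.73, 4.92 and 5.06 in wild type and 7.45, 7.68 and 7.72 in the knockout. All 3 knockout arrays stood more than 2 log2 units above all 3 wild-type arrays. The difference was 2.71 ± 0.14 (SE, n = 3 per group), or 6.56-fold, with an adjusted p of 2.85e-08 from limma. The other Tlcd2 probes rose by 1.82 and 2.37, and both passed the test over all probes.

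A rise of this size was not seen in the genes around it. None of the other 13 measured neighbours, from Smg6 at -538 kb to Inpp5k at 165 kb of the start of Mir22, passed the test, and their differences ran from -0.30 for Serpinf1 to 0.40 for Wdr81. Wdr81, at -22.8 kb, read 4.71, 4.33 and 4.4 in wild type and 4.74, 4.9 and 5.01 in the knockout, without overlap. These values lie near the lowest detected signals of the PBS arrays, 4.51 to 4.6. Prpf8, the spliceosome component next after Tlcd2, differed by -0.07 ± 0.15, and Smg6, a factor of nonsense-mediated decay, by -0.01 ± 0.10. Within 2 Mb of Mir22, 2 of 37 measured genes were called (5.41%), against 1.35% of the genes farther away on the chromosome. The other one was Slc6a4, the serotonin transporter, which was 0.59 higher and was chosen for naming after its values were seen. Its call was lost in 6 of 12 refits that each dropped an array, with an adjusted p of 0.168 after dropping wild-type PBS 3, and without it Tlcd2 is the 1 called gene of the 37.

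Farther along chromosome 11, Hs3st3b1, which encodes a heparan sulfate 3-O-sulfotransferase, read 5.24, 5.48 and 5.93 in wild type against 7.09, 6.61 and 6.84 in the knockout. The groups did not overlap, and the difference was 1.29 ± 0.18 (adjusted p 0.00102). Aloxe3, a lipoxygenase known from the epidermis, read 6.26, 6.04 and 5.92 in wild type and was not detected on any knockout array, so its level there was at least 2.86-fold lower. 4933427D14Rik, a gene known by its clone name, was likewise undetected in all knockout arrays and at least 1.89-fold lower. Fxr2, an RNA-binding paralog of the fragile X protein, fell by 1.13 ± 0.16 (adjusted p 0.000925), from 5.99, 5.87 and 6.11 to 4.92, 4.75 and 4.92. A second Fxr2 probe, detected on 2 wild-type and all knockout arrays, differed by 0.16 and was not called.

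On chromosome 2 the largest difference of the whole comparison was in Spint1, which encodes a Kunitz-type inhibitor of the cell-surface protease matriptase and of the activator of hepatocyte growth factor. Spint1 read 10.23, 10.41 and 10.33 in wild type and 5.53, 5.60 and 5.55 in the knockout. Every knockout array lay far below every wild-type array, with little spread within either group. The level fell by 4.77 ± 0.10 on the log2 scale, 27.2-fold (adjusted p 2.18e-13). A second Spint1 probe, itself undetected in the knockout, fell by 1.66 (adjusted p 5.27e-07 over all probes). Of the other measured members of the list of membrane serine proteases and Kunitz inhibitors, the matriptase gene St14, Prss8 and Hgf differed by 0.02 to 0.05 and were not called.

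Spint1 stood in a run of falling genes. Within 2 Mb of its start, 10 of 46 measured genes were called (21.7%), all 10 lower in the knockout, against 2.23% of the genes farther away on the chromosome. The centre of this window was chosen after the values were seen, so the share is a description. In chromosomal order the run held Bub1b, Plcb2, Rmdn3, Spint1, Pla2g4b, Ehd4, Tmem87a, Snap23, Lrrc57 and Stard9. Ehd4 (-0.55) and Snap23 (-0.49), named after their values were seen, lost their calls in 6 and 8 of the 12 refits that each dropped an array, with adjusted p of up to 0.148 for Ehd4 after dropping wild-type PBS 1 and 0.150 for Snap23 after dropping wild-type PBS 3. Genes that were not called stood between most of them: the 10 called were 10 of the 35 measured genes from Bub1b to Stard9.

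Bub1b encodes the mitotic spindle checkpoint kinase BubR1. It read 8.17, 8.01 and 7.96 in wild type and 6.18, 5.58 and 5.93 in the knockout. The groups were apart, the level fell by 2.15 ± 0.15 (adjusted p 4.71e-07), and a second probe fell by 1.31. No other of the 18 measured cell cycle genes was called, and their median was -0.14. Lrrc57, a leucine-rich repeat protein, was detected on all wild-type arrays at 6.48, 6.78 and 6.55 and on none of the knockout arrays, at least 4.12-fold lower. The phospholipases of the run were Pla2g4b, a cytosolic phospholipase A2 that releases fatty acids from membrane lipids, and Plcb2, the phospholipase C that couples chemoattractant receptors to calcium release. Pla2g4b fell by 2.23 ± 0.12, from 6.52, 6.63 and 6.60 to 4.44, 4.26 and 4.35, and the compared probe was not detected on any knockout array. Plcb2 fell by 1.66 ± 0.14, from 8.65, 8.54 and 8.49 to 7.09, 6.85 and 6.78. In both, every knockout array lay below every wild-type array, yet a second probe of each gene, undetected on most arrays, differed by 0.04 and 0.16, respectively. The other 10 measured phospholipases were not called, with differences from -0.27 to 0.25.

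Rmdn3, which tethers mitochondria to the endoplasmic reticulum, fell by 1.50 ± 0.14, although its other probes differed by -0.06 and -0.18. In the deposited processed values another probe was the brightest and Rmdn3 was not called. Tmem87a, a Golgi membrane protein, had probes that went opposite ways. The compared one fell by 1.25 ± 0.15 (adjusted p 0.000272) and the other rose by 1.73 ± 0.15 (adjusted p 5.90e-06 over all probes), each with the groups apart and each in the same direction on the nCB arrays, by -1.05 and 1.68. A difference in total Tmem87a RNA therefore cannot be given. Somewhat beyond the run, AA467197 fell by 2.32 ± 0.19, from 6.83, 7.53 and 7.14 to 4.45, 5.26 and 4.84, and Ppip5k1, an inositol pyrophosphate kinase, was 1.00 ± 0.16 higher.

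Other chromosome 2 genes were scattered over a span of 87.99 Mb. Cd93, a C-type lectin-like receptor of myeloid and endothelial cells, read 6.62, 6.35 and 7.06 in wild type and 8.31, 8.03 and 7.80 in the knockout. Neither group reached the other, and the rise was 1.37 ± 0.18 (adjusted p 0.00072), with a second probe 1.10 higher. Rbm45, an RNA-binding protein, rose by 1.08 ± 0.13, and Cat, the peroxisomal enzyme catalase, by 0.99 ± 0.13. The smaller rises were those of the kinase Stk35 (0.98), the riboflavin transporter Slc52a3 (0.79) and the Rab GTPase-activating protein Tbc1d20 (0.76). Bpifa1, a secreted protein of airway epithelium, fell by 1.58 ± 0.22, Pygb, a glycogen phosphorylase, by 1.05 ± 0.12, and the spermine oxidase gene Smox by 0.81 ± 0.14. With arrays scaled to a common median Cat, Slc52a3, Tbc1d20 and Ppip5k1 no longer passed, and neither did Bpifa1, Pygb and Slc52a3 in the deposited processed values. The summed intensity of 10 epithelial markers without Lyz2 was 7450 to 10000 in wild type and 4490 to 8070 in the knockout, and its part in the Bpifa1 difference was not tested. Slpi, a secreted inhibitor of neutrophil elastase, was 0.75 ± 0.16 higher (adjusted p 0.0323), but the call did not hold in 4 of 12 refits that each dropped an array, where the adjusted p reached 0.182 in the absence of wild-type PBS 1, and it was also lost with median scaling, the deposited processed values and no detection filter.

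**Figure D2:**
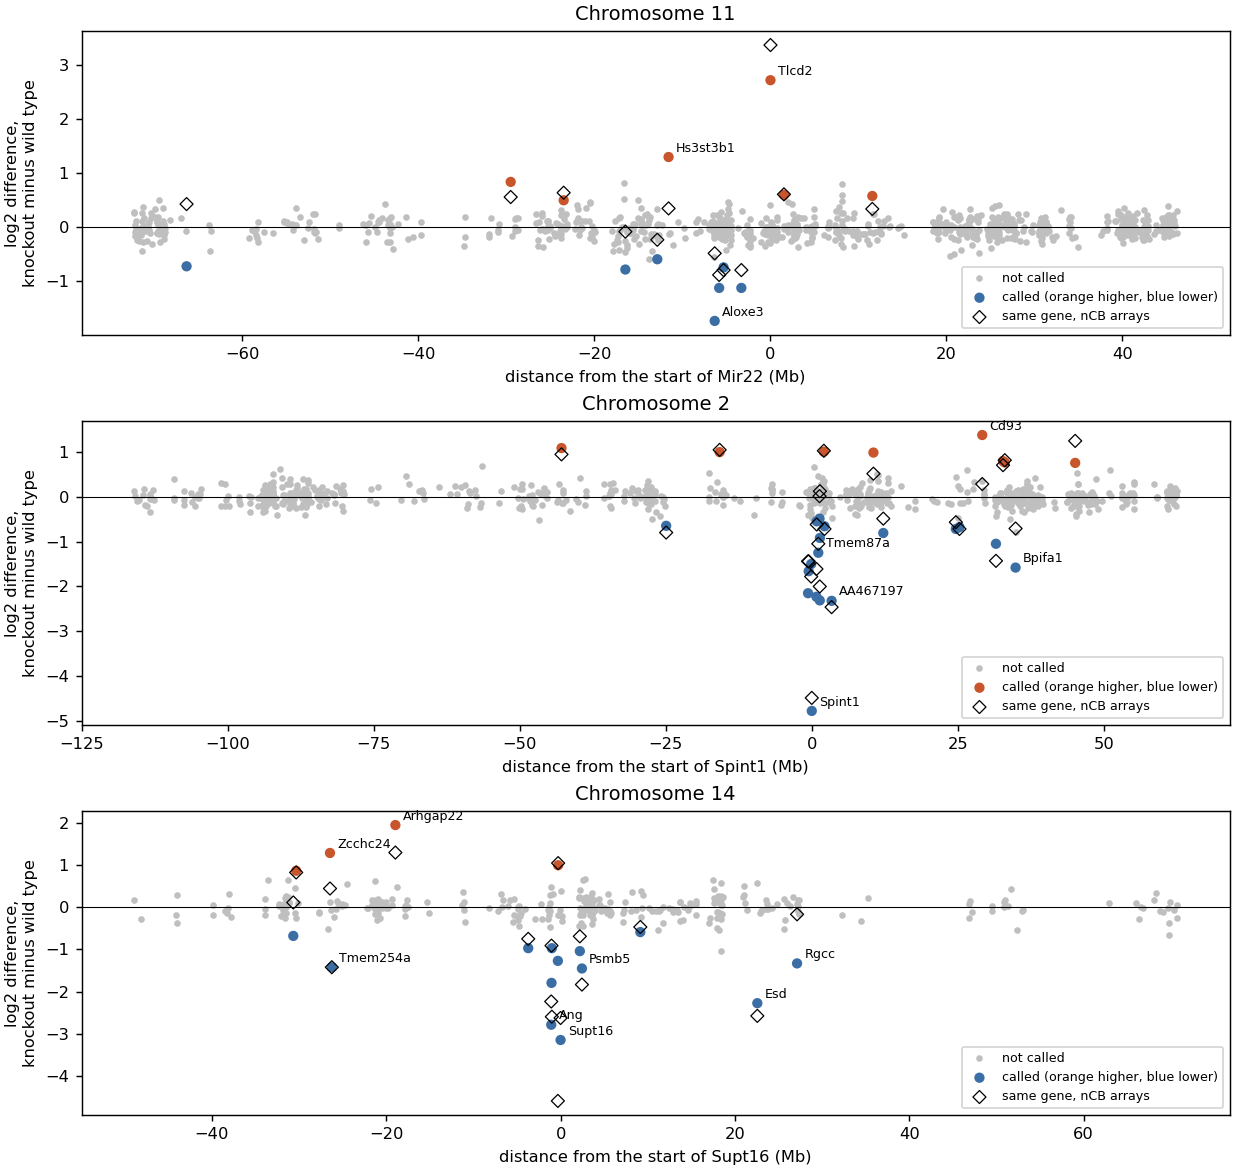
Log2 difference, knockout PBS minus wild-type PBS, for every measured gene of chromosomes 11, 2 and 14 (vertical axes) against its distance in Mb from the start of Mir22, Spint1 or Supt16 (horizontal axes), with called genes in colour and the nCB value of the same called genes as open diamonds. Beside Mir22, Tlcd2 (2.71) was higher and none of the other 13 nearest genes was called, while Spint1 (-4.77) and Supt16 (-3.14) had several lower genes within 2 Mb.

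Chromosome 14 had the highest share of calls, and its lowest value was that of Supt16, the large subunit of the histone chaperone FACT, which moves nucleosomes aside for RNA polymerase. Supt16 read 8.21, 8.30 and 8.40 in wild type and 5.45, 4.72 and 5.34 in the knockout. The groups were apart by more than 2 log2 units, and the level fell by 3.14 ± 0.17, 8.80-fold (adjusted p 4.50e-08). A second Supt16 probe, detected on all 6 arrays, differed by -0.20 (adjusted p 0.842 over all probes). None of the other 9 measured FACT and histone chaperone genes was called, and their differences ran from -0.19 to 0.32.

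Ribonuclease A family genes, secreted RNA-cutting proteins with antimicrobial roles, lie near Supt16. Ang, angiogenin, read 7.96, 7.89 and 7.72 in wild type and 4.76, 5.39 and 5.10 in the knockout and fell by 2.78 ± 0.18 (adjusted p 4.10e-07). Rnase6 read 8.56, 8.51 and 8.87 in wild type and 6.98, 7.04 and 6.53 in the knockout and fell by 1.79 ± 0.16 (adjusted p 1.11e-05). Neither gene overlapped between the groups, but a second Ang probe, detected on 1 array of each group, differed by -0.16. Rnase4, which neighbours Ang, went the other way by 0.47 ± 0.15 without passing the test, and the remaining members of the RNase A list, Rnase2a, Ear3 and Ear10, differed by -0.03 to 0.31. Rnase2b and Ear6, eosinophil-type ribonucleases outside the list, were detected on all wild-type arrays and on none of the knockout arrays. Rnase2b read 5.23, 4.97 and 5.37 in wild type and was at least 1.55-fold lower. Ear6, named after its values were seen, read 5.30, 5.62 and 5.99 in wild type against 4.34, 4.45 and 4.31, and its call was lost when some arrays were left out. These genes belong to families of close copies, so a probe may read more than 1 member.

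Within 2 Mb of Supt16, 6 of 22 measured genes were called (27.3%), 5 of them lower, against 3.53% of those farther away; this window too was placed after the values were seen. The exception was Mettl17, a mitochondrial protein needed for ribosome assembly, which was 0.99 ± 0.14 higher, with 5.88, 6.16 and 6.10 in wild type and 7.01, 7.09 and 7.01 in the knockout. Psmb5, the chymotrypsin-like subunit of the proteasome, lay 2.45 Mb away and fell by 1.45 ± 0.21, from 8.81, 8.20 and 8.53 to 6.74, 7.36 and 7.09. Elsewhere on the chromosome Esd, esterase D, fell by 2.27 ± 0.25, from 7.08, 7.69 and 7.49 to 5.13, 4.76 and 5.55. Its 3 other probes, of which 1 was detected, differed by -0.13, -0.04 and 0.15. Tmem254a fell by 1.42 ± 0.14, the cell cycle regulator Rgcc by 1.33 ± 0.18 and Tmem260 by 0.97 ± 0.12.

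The clearest rise on chromosome 14 was in Arhgap22, which switches off the small GTPase Rac. Arhgap22 read 5.07, 5.53 and 4.97 in wild type and 6.89, 7.18 and 7.34 in the knockout, apart by more than 1 log2 unit, for a difference of 1.94 ± 0.15 (adjusted p 2.70e-06). Zcchc24 rose by 1.28 ± 0.12 and Vdac2, a channel of the outer mitochondrial membrane, by 0.86 ± 0.13. Mettl17 and Vdac2 no longer passed with arrays scaled to a common median, and Mettl17, then represented by another probe, did not pass in the deposited processed values.

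**Figure D3:**
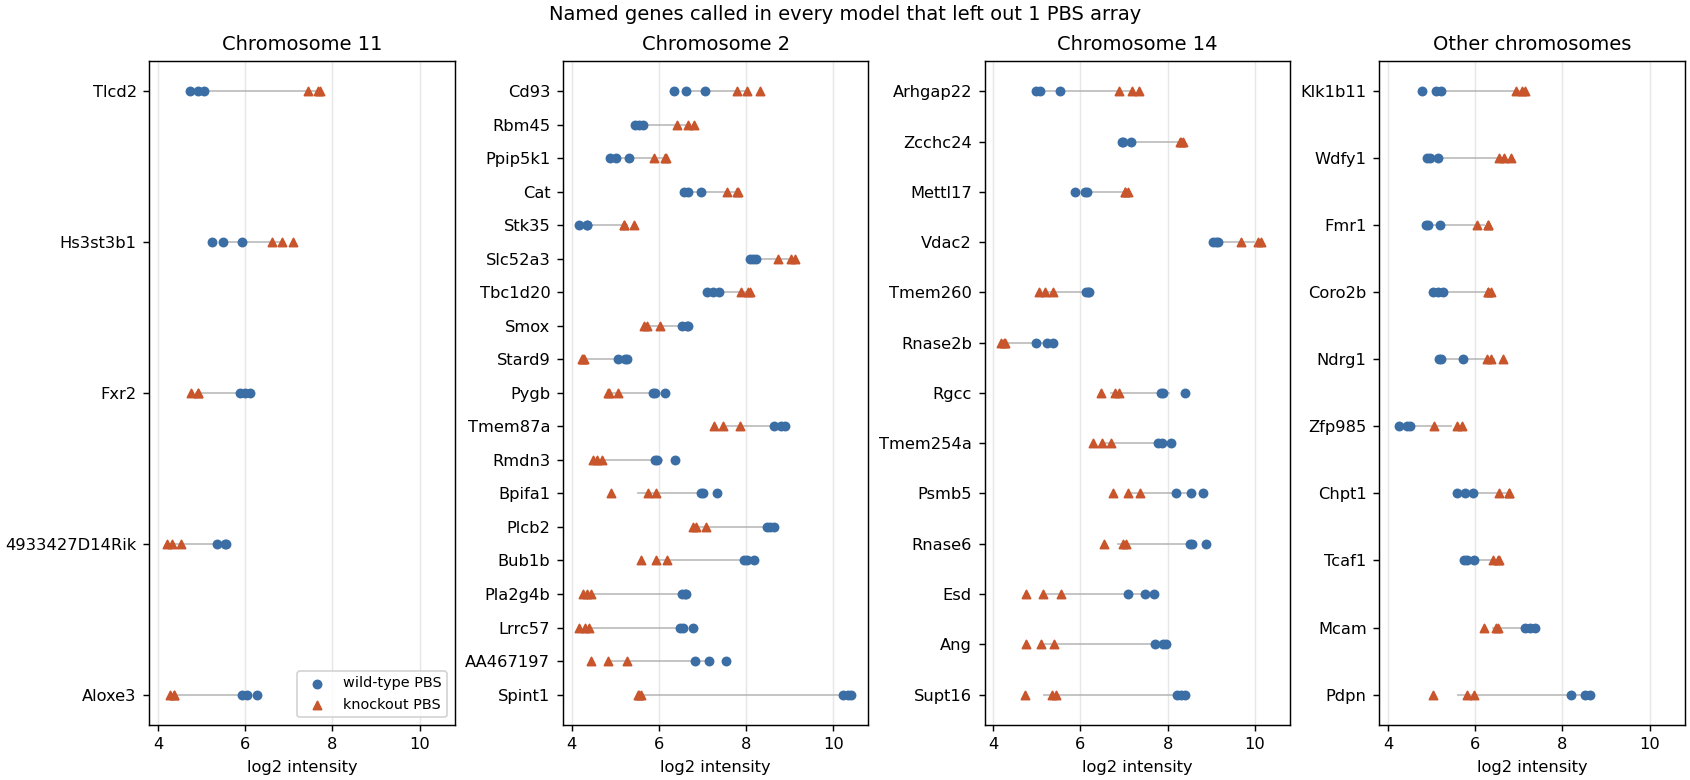
Log2 intensity (horizontal axes) on each of the 3 wild-type PBS arrays (blue circles) and 3 knockout PBS arrays (orange triangles) for the named genes of chromosomes 11, 2 and 14 and of the other chromosomes that were called with each PBS array left out in turn; grey lines join the group means. The groups of each gene lie apart, most widely for Spint1, from 10.33 to 5.56 in mean.

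Features on other chromosomes or without a position, counted together below as elsewhere, had 61 of 10430 called (0.585%), 33 higher and 28 lower. Of these 61, 21 stood with each PBS array left out in turn. Features placed on other chromosomes alone had 42 of 7850 called (0.535%), 23 higher and 19 lower, and 10 of the 42 stood. The rest had no known position and may lie on any chromosome. Dropping wild-type PBS 1 left 27 calls elsewhere, and dropping wild-type PBS 2 left 36. The count was 40 when knockout PBS 1 was dropped and 29 when knockout PBS 3 was. Pdpn on chromosome 4, podoplanin, a mucin-type glycoprotein of inflammatory macrophages, alveolar epithelium and lymphatic vessels, had the lowest difference there among the probes compared for each gene. It read 8.20, 8.64 and 8.52 in wild type and 5.03, 5.96 and 5.80 in the knockout. The knockout arrays were all more than 2 log2 units lower, and the level fell by 2.86 ± 0.21, 7.25-fold (adjusted p 9.23e-07). Mcam (CD146), an adhesion molecule of vessels, fell by 0.86 ± 0.12, from 7.15, 7.25 and 7.38 to 6.21, 6.51 and 6.47, and its 2 other probes differed by -1.01 and -0.55.

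Of 23 placed genes called higher elsewhere, 8 kept the call with each PBS array left out in turn. Klk1b11 on chromosome 7, a kallikrein-related protease with many close paralogs in the mouse, read 4.78, 5.22 and 5.11 in wild type and 7.06, 6.94 and 7.13 in the knockout. The difference was 2.01 ± 0.15 (adjusted p 1.69e-06), and a second probe was 0.59 higher without passing the test. Wdfy1 on chromosome 1, an adaptor of Toll-like receptor signalling, read 4.89, 5.15 and 4.95 in wild type and 6.66, 6.54 and 6.81 in the knockout, a rise of 1.67 ± 0.13. Every knockout array exceeded every wild-type array for both.

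Fmr1 on chromosome X encodes the fragile X protein, an RNA-binding repressor of translation that is related to Fxr2. It read 5.19, 4.86 and 4.91 in wild type and 6.29, 6.29 and 6.03 in the knockout, a rise of 1.22 ± 0.14 (adjusted p 0.000118). The compared probes of these paralogs thus went opposite ways, that of Fxr2 lower and that of Fmr1 higher. The second Fxr2 probe was not lower and was not called. Fxr1 differed by 0.12 ± 0.16 and was not called. Coro2b, a coronin that binds actin, rose by 1.16 ± 0.12, Ndrg1, a stress-responsive gene, by 1.06 ± 0.16 and the phosphatidylcholine enzyme Chpt1 by 0.94 ± 0.14. Tcaf1, which regulates a membrane ion channel, rose by 0.66 ± 0.11. Chpt1 and Tcaf1 no longer passed with arrays scaled to a common median. Zfp985 was not detected on any wild-type array and was at least 1.87-fold higher in the knockout, a call lost with no background correction and with no detection filter.

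Of the 117 called features, 19 were probes that the annotation used here does not list with a gene, 10 higher and 9 lower. The largest rise of the comparison was that of the unnamed probe ILMN_2635272, singled out after its value was seen. It read 6.64, 6.63 and 6.48 in wild type and 9.44, 9.92 and 9.77 in the knockout, a rise of 3.12 ± 0.22 (adjusted p 9.23e-07) with the groups far apart.

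Because 1 probe stood for each gene, the other probes of the called genes were read as a second measure. The called genes had 62 other probes in 41 genes. Of these, 50 differed in the direction of the compared probe, 20 by at least 0.5 times its size, and 12 passed the test in that direction over all probes. On chromosome 14, 1 of 9 reached 0.5 times the size of the compared probe. Some of the 62 were too dim to serve as a second measure, and 39 of them, in 29 genes, were detected on all 3 arrays of at least 1 group. Of those 39, 35 had the same direction, 20 reached 0.5 times the size and 12 passed. On chromosome 14 the size was reached by 1 of 4 such probes. The other Tmem87a probe passed in the opposite direction. Conversely, 13 genes were called only by a probe that was not the one compared, 12 of them lower in the knockout, and 7 of them on chromosomes 2, 11 and 14.

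These 13 were not picked by a rule on named genes and are described after their values were seen. A probe of Necap2, a protein of clathrin-coated vesicles, read 9.57, 9.59 and 9.44 in wild type and 5.32, 5.69 and 5.27 in the knockout and fell by 4.11 ± 0.14, 17.3-fold, while the probe compared for the gene differed by -0.23. Necap2 lies on chromosome 4, at -2.2 Mb from Pdpn, and Zfp985 lies 4.29 Mb from Pdpn on the other side. Ccndbp1, which binds cyclin D1, lies 1.77 Mb from Spint1, and its probe fell by 1.73 ± 0.18 while the compared one differed by -0.08. Near Supt16, probes of the DNA repair gene Parp2 and of the lysosomal phosphatase Pip4p1 fell by 1.62 ± 0.14 and 1.89 ± 0.14, while the compared probes differed by -0.19 and 0.09. All 4 of these probes were also called lower on the nCB arrays, with differences from -4.24 to -1.59. Probe sequences were not analysed here, and the part that they or transcript variants play in these differences was not tested.

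The nCB arrays, 3 per genotype, share no sample with the PBS arrays, though the model pooled their spread, and gave a second reading of the same genes. On them limma called 424 of 12380 features (3.42%) between the genotypes. Of the 117 features called under PBS, 69 were called in the same direction under nCB (59.0%), which is 16.3% of the nCB calls. The same sign was seen for 104 of the 117, a count given without the share over all 12380 features. One was called in the opposite direction: Gpr171, a G protein-coupled receptor, differed by 0.84 under PBS and by -0.77 under nCB. Its PBS call was lost in 7 of the 12 refits that each dropped an array, with an adjusted p of 0.219 after dropping wild-type PBS 1. The share called again was 20 of 26 on chromosome 2, 13 of 17 on chromosome 14, 6 of 13 on chromosome 11 and 30 of 61 elsewhere or without a position.

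Among genes called under both exposures, the nCB difference was -4.48 for Spint1, -2.62 for Supt16, -2.57 for Esd, -2.46 for AA467197, -2.23 for Ang, -2.00 for Lrrc57 and -1.64 for Pdpn. It was 3.36 for Tlcd2, 1.86 for Wdfy1, 1.29 for Arhgap22 and 1.01 for Fmr1. Other PBS calls had smaller nCB values that did not pass the test: the difference was 0.28 for Cd93, 0.34 for Hs3st3b1, -0.17 for Rgcc and -0.04 for Mcam. Tested as a difference between the genotype effects, these 4 did not pass, with adjusted p of 0.169, 0.212, 0.12 and 0.107. That test called 16 of 12380 features (0.129%), 8 of them among the 117.

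**Figure D4:**
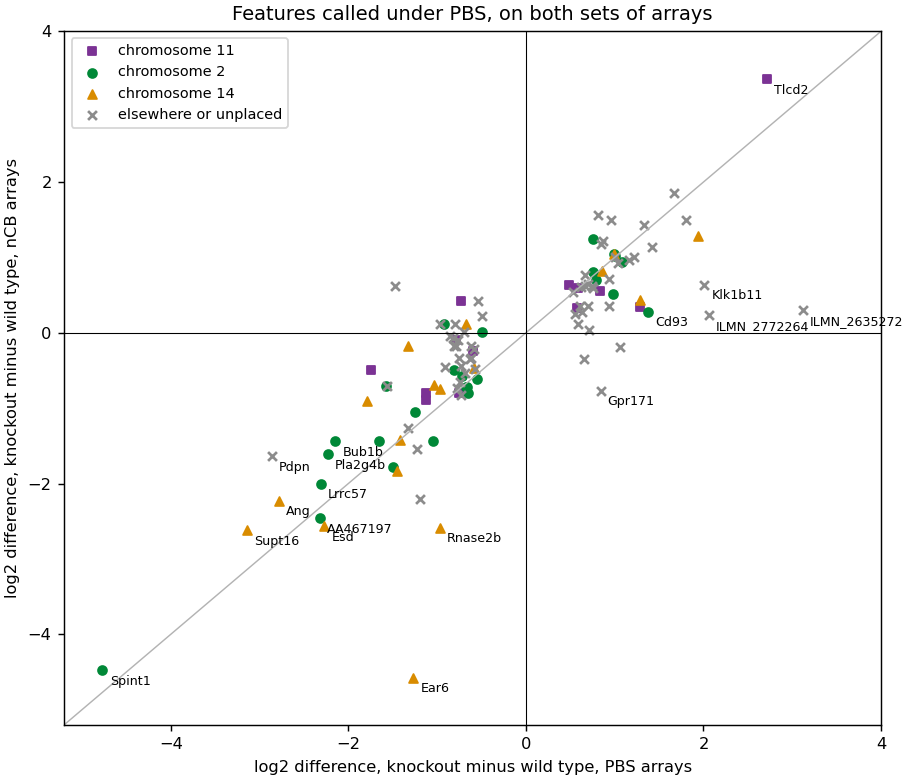
Log2 difference, knockout minus wild type, of the 117 features called under PBS, on the PBS arrays (horizontal axis) and on the nCB arrays (vertical axis), with the line of equality in grey and symbols by chromosome. Of the 117, 104 had the same sign on both; Ear6 and Rnase2b lie far below the line and ILMN_2635272 far to its right.

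Gene lists were then read for what the cells do, each by its counts and its median beside those of all 12380 features, whose median was -0.01 with 51.4% below 0. Of 37 lists, 24 had no called gene, and 31 had a median within 0.2 of 0. The lowest median was that of MHC class II presentation. Of 14 measured genes 3 were lower and none higher (0.533% of all features were lower), 8 had every knockout array below every wild-type array (7.04% of all features did), and the median was -0.48.

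Ciita, the master activator of class II genes, read 6.50, 6.22 and 6.00 in wild type and 5.62, 5.50 and 5.38 in the knockout and fell by 0.74 ± 0.14 (adjusted p 0.0186). H2-Ab1, the beta chain of I-A, read 12.27, 12.55 and 12.25 in wild type and 11.34, 11.86 and 11.54 in the knockout and fell by 0.78 ± 0.17 (adjusted p 0.0402). H2-Eb1, the beta chain of I-E, read 11.02, 11.04 and 10.77 against 10.01, 10.26 and 10.37 and fell by 0.73 ± 0.16 (adjusted p 0.0493). The groups were apart in all 3. The calls were close to the threshold: when each of the 12 arrays was dropped in turn, Ciita lost its call in 4 refits, H2-Ab1 in 8 and H2-Eb1 in 10. The adjusted p rose to 0.113 for Ciita and 0.208 for H2-Eb1 after dropping wild-type PBS 1, and to 0.198 for H2-Ab1 after dropping wild-type PBS 2. Under the deposited processed values none of the 3 passed, with adjusted p of 0.067 for Ciita, 0.157 for H2-Ab1 and 0.174 for H2-Eb1. With no detection filter none passed either (0.0658, 0.154 and 0.17). With only the 6 PBS arrays Ciita (0.054) and H2-Ab1 (0.0537) did not pass. With a replicate block H2-Ab1 (0.0708) and H2-Eb1 (0.0979) did not. H2-Eb1 also failed with detection p under 0.01 (0.0508) and with every probe tested for itself (0.0543).

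The invariant chain Cd74 differed by -0.59 ± 0.16 and H2-Aa by -0.56 ± 0.21 without passing, although 1 further Cd74 probe passed (-0.70, adjusted p 0.029 over all probes). The peptide-loading genes H2-DMb1 and H2-DMa differed by -0.41 and -0.03. The lysosomal enzymes Ifi30 and Ctss, which prepare peptides for class II, differed by 0.09 and 0.11. On the nCB arrays the values were -0.65 for Ciita, -0.73 for H2-Ab1 and -0.83 for H2-Eb1, each called there.

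Markers of conventional dendritic cells, which carry much class II, were measured beside these genes. Of 12 measured, 1 was called lower and 11 had negative differences, with a median of -0.37. Mgl2, a C-type lectin of a dendritic cell subset that lies on chromosome 11, fell by 0.75 ± 0.16 (adjusted p 0.0374). That call was lost in 7 of those refits, with an adjusted p of 0.206 after dropping knockout PBS 3. It was also lost with no background correction, the deposited processed values, no detection filter, only the 6 PBS arrays and a replicate block (adjusted p 0.0698 to 0.136). Ccl17, a dendritic cell chemokine, read 7.34, 7.17 and 7.23 against 6.54, 6.44 and 6.45 and differed by -0.77 ± 0.20 (adjusted p 0.12). Clec9a, a marker of cross-presenting dendritic cells, differed by 0.16. The summed linear intensity of the list was 775 to 816 in wild type and 554 to 639 in the knockout, and that of the class II list 22300 to 26800 and 16300 to 18900.

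Less class II RNA per cell and fewer class II-rich cells in the sort cannot be told apart in these bulk samples, and the part of the cell mixture in the class II values was not tested. B cells also carry class II: their 6 measured markers had a median of -0.35, with summed intensities of 561 to 944 in wild type and 452 to 647 in the knockout and no call. The alveolar macrophage list, by contrast with the dendritic cell list, had no call, a median of -0.01 and overlapping sums of 31700 to 32700 and 30700 to 31900. Neutrophil markers had a median of -0.39, T and NK cell markers -0.02, epithelial markers -0.15 and endothelial and stromal markers -0.13, without a call in any of these lists.

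Neutrophil chemoattractants had the highest median, 0.53 over 4 measured, with no call. Cxcl2 read 5.16, 6.52 and 5.89 in wild type and 7.58, 7.37 and 6.90 in the knockout, 1.43 ± 0.33 higher with an adjusted p of 0.0613. Cxcl1 read 4.31, 4.53 and 4.38 against 5.44, 5.73 and 4.92, 0.96 ± 0.22 higher with an adjusted p of 0.0642, and was detected on 1 of the 3 wild-type arrays. Both genes had the groups apart, and neither passed the test, although another Cxcl2 probe did (1.10, adjusted p 0.0286 over all probes). The other 2 measured members, Cxcl15 and Ppbp, differed by 0.11 and 0.09. Under nCB the difference was -0.30 for Cxcl2 and -0.03 for Cxcl1.

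Immediate early genes, which respond within minutes to stimulation, had a median of 0.30 over 16 measured, 11 of them above 0, and no call. Egr1 was 0.91 ± 0.27 higher, Ier2 0.77 ± 0.19, Fos 0.58 ± 0.25 and Jun 0.41 ± 0.18, with adjusted p of 0.21, 0.0885, 0.546 and 0.57. Wild-type PBS 1 was the lowest array for all 4. The list also had 5 members below 0, down to -0.39 for Klf2 (adjusted p 0.412). The groups were apart for 3 members with the knockout higher and for 2 with the knockout lower. Cytokines showed no call among 12 measured, and Il1b and Tnf differed by -0.26 ± 0.26 and 0.21 ± 0.19. Il6 and Il23a did not pass the detection filter and were not tested.

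Messages reported as targets of miR-22 in other studies had no call. Of 17 measured none passed in either direction, and the median was 0.00, against -0.01 over all features. Hdac4 read 6.39, 6.04 and 5.97 in wild type and 5.82, 5.47 and 5.56 in the knockout. The groups were apart with the knockout lower, and the difference of -0.51 ± 0.16 did not pass (adjusted p 0.242). Under nCB Hdac4 was 0.68 higher in the knockout, and the difference between both exposures had an adjusted p of 0.0544. Purb, a repressor of transcription in muscle and an accepted miR-22 target there, was 0.35 ± 0.12 higher (adjusted p 0.32). None of the other 14 measured histone deacetylases and sirtuins was called, with differences from -0.13 to 0.16, and the 12 measured miRNA processing genes, among them Dicer1 at -0.22 and Ago2 at -0.08, had no call.

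**Figure D5:**
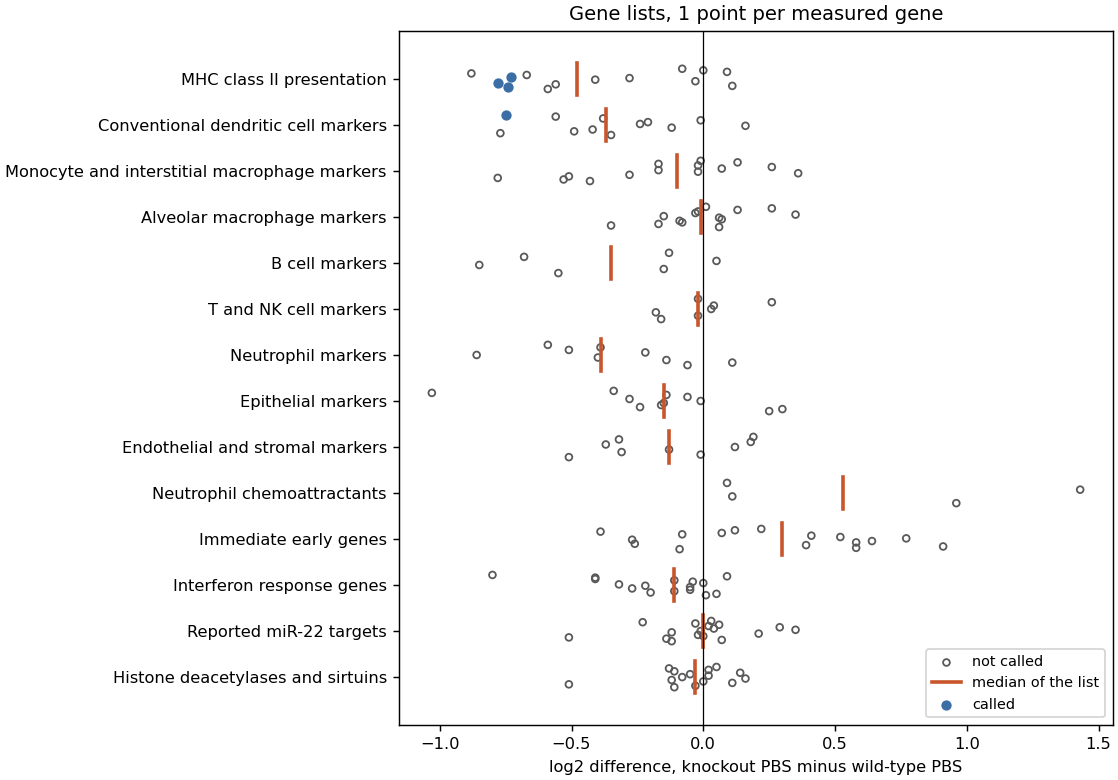
Log2 difference, knockout PBS minus wild-type PBS (horizontal axis), of each measured gene in 14 of the lists (rows), with called genes filled and the median of each list as a vertical bar. The class II list (median -0.48) and the conventional dendritic cell list (-0.37) lie left of 0, the neutrophil chemoattractants (0.53) right of it, and the reported miR-22 targets (0.00) around it.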

How the data were processed

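RNA of lung CD11c+ cells was hybridised to 12 Illumina bead arrays, 3 per group. The intensity per probe and its detection p-value were deposited by the authors for 45281 probes, exported with GenomeStudio per the submitters' processing notes. The log2 matrix deposited by the authors covers 24952 probes with an equal median of 3.12 on every array; the steps behind it are not given in the sources used here, and it served as an alternative.

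Intensities were background-corrected and quantile-normalized with neqc (limma 3.58.1, R 4.3.3, offset 16). A probe stayed if 3 or more of the 12 arrays gave it a detection p below 0.05 (17346 did), then the brightest probe per symbol was used, and unlisted probes singly. Of the 12380 features, 9809 had a symbol; chromosomes came from GRCm38.p6 for 9800, and the build of the array annotation is not given in the sources used here. limma fitted 4 group means to all 12 arrays, two-sided, with Benjamini-Hochberg adjustment within each of 3 comparisons. The model was tested on simulated data, where it recovered 26% of differences of 0.5 log2 units and 100% of those of 1, with 5.78% false calls. A feature that was not called may therefore still differ by 0.5, and the simulation does not set an upper limit for each gene. Cxcl2 differed by 1.43 (limma adjusted p 0.0613) and Sftpc by -1.03 (adjusted p 0.373) without a call. No slide or scan record was given, so array batches could not be examined.

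Members, gene lists and the rule for named genes were chosen with earlier results of these data known. The rule took called genes whose groups do not overlap and whose call stood without each PBS array, up to 12 per direction on each of chromosomes 2, 11 and 14 and 15 elsewhere. It added the called and lowest-p list members, genes beside Mir22 and a few genes of interest. An undetected group gives only a bound, the bright mean over the lowest detected signal or the dim probe itself. The alternatives changed background correction, scaling, filter, probe choice, arrays and model. The result of 1 gene list is not reported here.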

Additional observations from a re-analysis of the deposited data

Results flagged for a closer look

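The genotype effect differed between the exposures, in limma's interaction test, for 9 of the features described here or called under PBS. Each is given as the nCB effect minus the PBS effect, knockout minus wild type. Ear6 and Rnase2b, ribonuclease genes of chromosome 14 with close copies, were called lower in the knockout under both exposures. Ear6 differed by -3.31 ± 0.34 (-1.27 under PBS, -4.58 under nCB, adjusted p 0.000781), and Rnase2b by -1.62 ± 0.17 (-0.97 and -2.59, adjusted p 0.000781). Both were undetected in the knockout under PBS, so their PBS values understate the difference by an unknown amount, and the difference between exposures is uncertain by as much.

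The unnamed probe ILMN_2635272 was 3.12 higher under PBS and 0.30 higher under nCB, a difference of -2.82 ± 0.32 (adjusted p 0.00105). Klk1b11 was higher by 2.01 and 0.64, a difference of -1.37 (adjusted p 0.0211). Ndrg1 was 1.06 higher under PBS and differed by -0.19 under nCB, a difference of -1.25 (adjusted p 0.0459).

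Opposite signs were seen for Ndrg1 and for 4 other genes, of which only Gpr171 was called under both exposures. Ndrg1, Gm4951 and Sorl1 were not called under nCB, with adjusted p of 0.618, 0.168 and 0.0697. Cxcl9, an interferon-induced chemokine, was not called under PBS (0.64, adjusted p 0.227) and was lower under nCB (-1.48), a difference of -2.11 ± 0.28 (adjusted p 0.00381). Gpr171 changed from 0.84 to -0.77, a difference of -1.61 (adjusted p 0.0225). Gm4951 had 0.65 and -0.35, a difference of -1.0 (adjusted p 0.0459), and the sorting receptor Sorl1 had -0.54 and 0.42, a difference of 0.96 (adjusted p 0.0396). The PBS calls of Gpr171, Gm4951 and Sorl1 were lost in 7, 6 and 12 of the 12 refits that each dropped an array. Over all 12380 features, 16 passed this test. Ear6, Gm4951, Gpr171, Sorl1 and ILMN_2635272 were named after their values were seen.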

How the results depend on the processing

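Of the 54 called genes taken by the rule for named genes, none changed sign under the alternatives run, and 35 kept their call under every alternative, each left-out array included. Median scaling moved the higher calls from 51 to 18 and the calls on chromosomes 2, 11 and 14 from 56 to 37. With the deposited processed values the higher calls were 29 and the calls elsewhere 34, and with no detection filter the calls elsewhere were 39. Leaving out 1 array gave 30 to 56 higher calls, 39 to 69 lower calls, 42 to 58 calls on chromosomes 2, 11 and 14, and 27 to 67 elsewhere. The cause was not tested. Named genes that lost their call were 11 under median scaling (Mettl17, Slc52a3, Cat, Chpt1, Ppip5k1, Tbc1d20, Tcaf1 and Vdac2 among them), 12 with the deposited processed values, 7 with no filter, 5 with only the 6 PBS arrays and 2 with no background correction. With the deposited processed values Bpifa1, Pygb, Mettl17 and Slc52a3 lost it, and so did Rmdn3 (-0.35, adjusted p 0.881); for Rmdn3 and Mettl17 another probe was then the brightest. With a replicate block the calls were 43 higher and 54 lower. Deviations from the group means correlated at -0.14, -0.226 and 0.103 within replicate numbers. These 3 values cannot show whether samples with the same number were paired, and the main model treated them as unpaired. Of 142 named genes that were not called, 19 passed under some alternative, among them Cxcl1 and Cxcl2. Dim probes limit the rest: a group without detection gives a bound only, and 3 arrays per group limit the precision.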

Other observations

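Fc and complement receptors, which bind antibody-coated particles, had 2 of 10 measured genes called higher and none lower, with a median of 0.05. The called genes were Cd93, which lies on chromosome 2, and Fcgr2b. Over all features 0.412% were called higher and the median was -0.01. Fcgr2b, the inhibitory IgG receptor, read 8.98, 9.48 and 9.30 in wild type and 9.87, 10.06 and 9.98 in the knockout, a rise of 0.71 ± 0.13 (adjusted p 0.0111). The groups were apart, but the call was lost in 3 of 12 models that left out 1 array (adjusted p 0.064 without wild-type PBS 1) and under median scaling (0.628). It was also lost in the deposited processed values (0.067) and with only the 6 PBS arrays (0.0602). The nCB value of Fcgr2b was 0.03. Fcgr3 and Fcgr4 differed by 0.46 and 0.26 without passing. Among fatty acid and lipid droplet genes, Pdk4, which shifts mitochondria from glucose to fat, was the 1 call of 15, 0.96 ± 0.17 higher (adjusted p 0.0109), lost in 3 of those models (0.0754 without wild-type PBS 1), under median scaling, in the deposited processed values, with no filter and with only the 6 PBS arrays, and called under nCB at 1.49.

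The complement genes C1qa, C1qb and C1qc, made by interstitial macrophages, differed by -0.53, -0.78 and -0.51 under PBS without a call and by -1.02, -0.93 and -0.95 under nCB, where each was called. The 14 measured markers of monocytes and interstitial macrophages had a median of -0.10 and no call. Interferon response genes had a median of -0.11 over 16 measured, with no call. Usp18, which restrains interferon signalling, differed by -0.80 ± 0.24 (adjusted p 0.201). Among NRF2 targets, genes of the response to oxidants, Cat was the 1 call of 12. Cat lies on chromosome 2, and its call was lost under median scaling (adjusted p 0.197). Gstm1, a glutathione transferase, differed by 0.62 ± 0.17 (adjusted p 0.154).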
